A study of Mus musculus with 8 samples.

Results

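The compounds described here are simple sugars, sugar alcohols, cyclitols and amino sugars in mouse faeces, seen as exact masses. Members were the rows of the deposited mass table within 3 ppm of the neutral formula of 14 carbohydrates, or of that formula with 1 hydrogen replaced by sodium. The rule found 15 of the 2429 rows, which matched 10 of the 14 formulas: 13 rows at a neutral formula and 2 at a sodium form. Faeces came from female C57BL/6 mice, an inbred laboratory strain. The untreated group held 4 samples from mice given no agent. The streptomycin group held 4 samples collected 24 h after a 20 mg oral gavage of streptomycin, an antibiotic that blocks bacterial ribosomes. The design text says that the animals were age-matched but gives no age, and it describes collection before and then after the dose, so the drug and the day of collection cannot be told apart. No label says whether each sample is a different mouse, so p-values measure only the spread between these samples, which may be technical. Extracts in acetonitrile were sprayed directly into a high-resolution FT-ICR mass spectrometer, which weighs ions without separating isomers. Each value is a relative intensity, averaged over 2 acquisitions of a sample.

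Free sugars in the gut come from the diet, from glycans of the mucus layer and from bacterial cell walls. Small sugars are taken up by the host or fermented by gut bacteria. Oligosaccharides of the raffinose family and the galactosides of methylated inositols are abundant in legume seeds such as soybean, and mammals lack the alpha-galactosidase that would digest them in the small intestine, so gut bacteria break them down. N-acetylglucosamine and N-acetylgalactosamine are building blocks of mucin glycans, and the former also of bacterial peptidoglycan and of chitin. A name below stands for a formula, so "hexitol" covers mannitol, sorbitol and galactitol alike.

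After streptomycin, 14 of the 15 rows were listed in at least 3 of the 4 samples, and none of these 14 was listed in any untreated sample. They covered hexose or inositol, hexitol, disaccharide, trisaccharide, tetrasaccharide, methyl inositol, hexosyl methyl inositol, N-acetylhexosamine and hexosyl N-acetylhexosamine. Among all rows 47.3% were likewise listed in streptomycin samples only. The remaining row, at the sodium form of hexonic acid, was listed in all 8 samples. No row of the 14 formulas was listed in untreated samples only. Every row of the table had values in 3 or more samples of one group, so a formula without a row may still have been present in fewer samples. The summed intensity of the 15 rows was 0.602% to 0.721% of a sample's total after streptomycin and 0.0277% to 0.0478% in untreated samples. Rows of one formula may be 2 ion forms of one compound, so these sums can count a compound more than once.

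**Figure D1:**
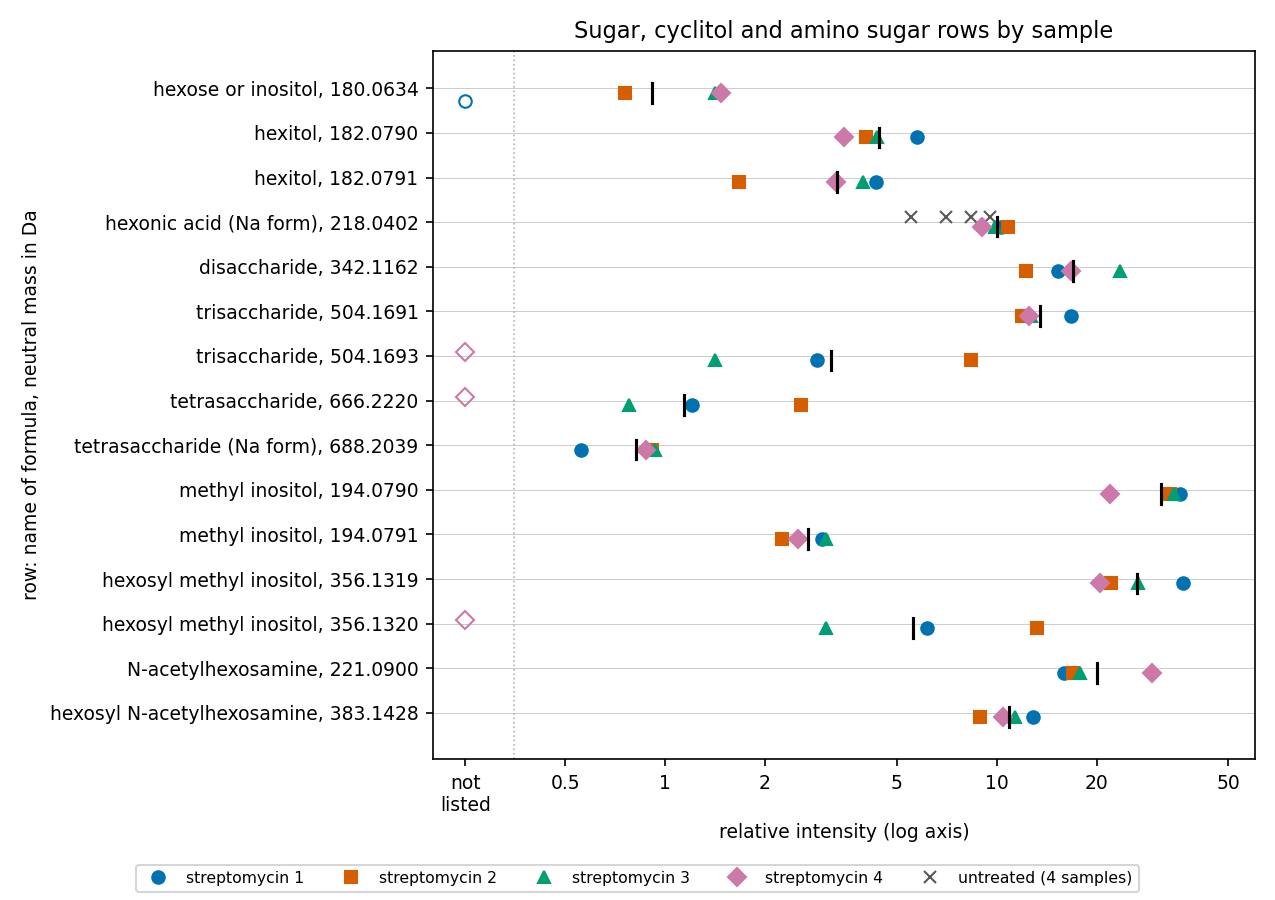
Relative intensity (log axis) of each of the 15 rows in the 4 streptomycin samples (filled symbols, open where not listed) and, for hexonic acid alone, in the 4 untreated samples (crosses); vertical bars are means over the 4 streptomycin samples with 0 for a sample without the mass. The other 14 rows had no value in any untreated sample; methyl inositol at 194.0790 Da had the highest mean, 31.3.

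All 15 rows entered the fit over the table (limma, Benjamini-Hochberg adjusted p under 0.05, with 0 replaced by the lowest sample value, 0.0738). It called 14 rows higher and 0 lower; at an unadjusted p under 0.05, and by the methods' t-test, 0 were lower as well. Over all rows 52.7% were called higher and 36.7% lower. Each row listed in streptomycin samples only was called, 100% of 1150, so the 14 calls repeat the listing pattern and add nothing to it. A group listed at 0 allows no fold. The lowest sample value above 0 was 0.0738 in untreated and 0.101 in streptomycin samples, and the medians of sample values above 0 were 2.28 and 1.97. A sample value is the mean of 2 acquisitions, and an acquisition that did not list a mass counted as 0. Both lowest values are therefore below the lowest intensity listed in any single acquisition, 0.148. Untreated samples listed 1210 to 1270 rows with a summed intensity of 19761 to 20140, and streptomycin samples 1633 to 1768 rows with 21600 to 23221. How many ions an intensity stands for is unknown, which leaves the values without counting intervals.

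Hexitol was the polyol formula among the members, and it stood on 2 rows. At 182.0790 Da it had 5.75, 4.03, 4.37 and 3.47 in streptomycin samples 1 to 4 (mean 4.40 ± 0.971, SD, n = 4). At 182.0791 Da it had 4.32, 1.68, 3.95 and 3.28 (3.31 ± 1.17, SD, n = 4). On both rows sample 1 was the highest, while the lowest was sample 4 on the first and sample 2 on the second. Hexose or inositol, the formula of glucose, galactose, fructose and myo-inositol, stood on 1 row. That row at 180.0634 Da was not listed in sample 1 and had 0.759, 1.42 and 1.48 in samples 2 to 4. Mannitol and sorbitol reach the colon where the host absorbs them poorly, and glucose is absorbed in the small intestine.

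The hexonic acid row, at 218.0402 Da, was the only member measured on both sides. It is the sodium form, and the neutral formula of hexonic acid had no row. A row higher by 1 ammonia, 235.0668 Da, was listed in streptomycin samples only. Its mean was 2.99 ± 0.526 (SD, n = 4), and it stood at 26.6% to 32.5% of the hexonic acid row in these samples. Gluconic acid, the common hexonic acid, is a growth substrate of enterobacteria. Untreated samples 1 to 4 had 9.52, 8.34, 7.01 and 5.50, and streptomycin samples 10.3, 10.8, 9.86 and 9.02. The groups overlapped, since the highest untreated sample exceeded the lowest streptomycin sample. The means were 7.59 ± 1.73 and 10.0 ± 0.765 (SD, n = 4 each), a ratio of 1.32. The log2 change was 0.42 ± 0.18 (SE), with a 95% interval of 0.01 to 0.84, and it did not pass (limma adjusted p = 0.0518). Over rows listed in both groups limma called 20.7% higher and 38.7% lower. An exact two-sided permutation test of this row gave p = 0.0571, where 4 against 4 samples allow 0.0286 at the least. The size depended on the scale. It was 0.81 on the median-ratio scale (limma adjusted p = 0.00278) and 0.26 on the total-intensity scale (limma adjusted p = 0.187). On the scale of the calibrants, the reference compounds spiked into each extract, it was 0.0057 (limma adjusted p = 0.982). Both calibrants were themselves higher in every streptomycin sample than in any untreated one. At 621.0216 Da the untreated mean was 147 ± 9.31 and the streptomycin mean 193 ± 21.7 (SD, n = 4 each). At 921.0027 Da these means were 100 ± 12.0 and 138 ± 12.4. Whether this bears on the rows not listed in untreated samples was not tested. Without untreated sample 1 the log2 change of hexonic acid was 0.54 and passed (limma adjusted p = 0.0172). Without untreated sample 4 it was 0.28 (limma adjusted p = 0.0872). The mass of the hexonic acid row also lies within 0.227 ppm of C12H10O2S, and the 2 formulas cannot be told apart here.

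**Figure D2:**
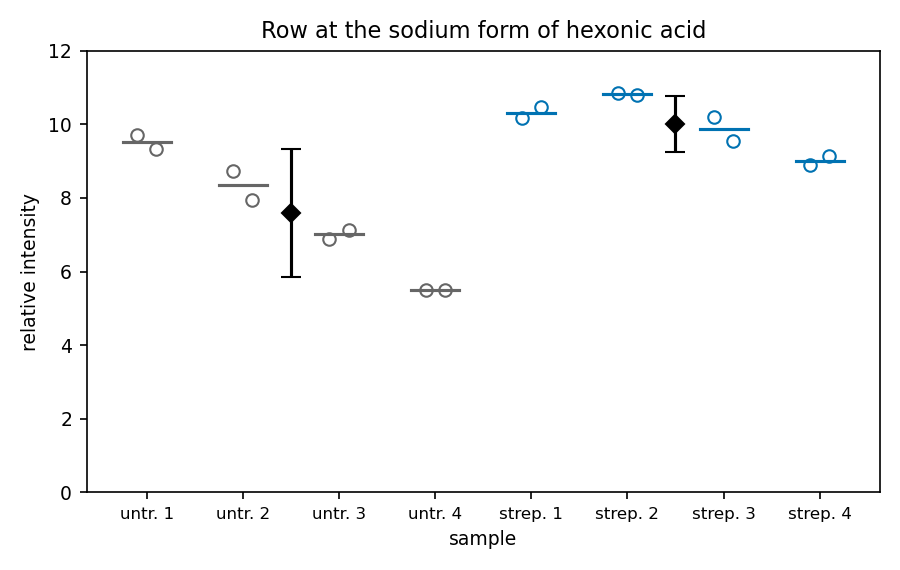
Relative intensity (linear axis) of the row at the sodium form of hexonic acid in each of the 8 samples: open circles are the 2 acquisitions, lines the sample means, and diamonds with bars the group means ± SD (n = 4). Untreated samples ran from 5.50 to 9.52 and streptomycin samples from 9.02 to 10.8.

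The oligosaccharide formulas formed a ladder spaced by 1 hexose unit, from hexose through disaccharide and trisaccharide to tetrasaccharide. Disaccharide, the formula of sucrose, maltose and lactose, had 15.3, 12.2, 23.5 and 16.7 in streptomycin samples 1 to 4 at 342.1162 Da (16.9 ± 4.73, SD, n = 4). Sample 3 was the highest and sample 2 the lowest. Rows lower by 1 water, 324.1057 Da, and higher by 1 ammonia, 359.1429 Da, were likewise listed in streptomycin samples only, with means of 4.89 ± 1.10 and 3.44 ± 1.14 (SD, n = 4 each), and both were highest in sample 2, where disaccharide was lowest. Pentose dimer plus acetic acid has the composition of disaccharide as well. Trisaccharide, the formula of raffinose and maltotriose, had 16.7, 11.9, 12.7 and 12.5 at 504.1691 Da (13.5 ± 2.21, SD, n = 4), with sample 1 the highest. A further trisaccharide row at 504.1693 Da had 2.88, 8.39 and 1.42 in samples 1 to 3 and was not listed in sample 4. Tetrasaccharide, the formula of stachyose, was listed at its neutral mass, 666.2220 Da, with 1.21, 2.57 and 0.778 in samples 1 to 3, and again not in sample 4. Its sodium form at 688.2039 Da had 0.558, 0.915, 0.931 and 0.876, and the low value of sample 1 came from 1 acquisition that did not list it. Not all further ion forms were limited to streptomycin samples. At masses of a tetrasaccharide chloride form, 702.1995 Da, and of its protonated ion, 667.2301 Da, the table gave identical values in both rows and listed all 8 samples. Untreated samples had 2.33, 4.93, 4.84 and 1.76 and streptomycin samples 4.12, 9.45, 4.92 and 6.03, so the groups overlapped and the difference did not pass (limma adjusted p = 0.0762). In untreated samples 1 and 4 only 1 acquisition listed these masses, and their errors of 1.37 and 1.45 ppm exceeded those of all 15 members. Where both acquisitions of a sample listed these masses, they differed by a median of 65.8% and by up to 91.0%, so the sample values are uncertain. Pentasaccharide, the formula of verbascose and the next step of the raffinose family, had no row at 828.2747 Da, and neither had disaccharide alcohol, the formula of maltitol and lactitol, at 344.1319 Da.

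The 2 cyclitol ethers had the highest mean intensities of the members, which says nothing of their amounts. Methyl inositol is the formula of pinitol, the main cyclitol of soybean, and of methyl hexosides. It had 35.8, 33.3, 34.2 and 21.9 in streptomycin samples 1 to 4 at 194.0790 Da (31.3 ± 6.32, SD, n = 4), and its mean was at percentile 95.5 of all rows listed in that group. Sample 4 was the lowest. The other methyl inositol row, 194.0791 Da, had 2.98, 2.25, 3.06 and 2.52 (2.70 ± 0.384, SD, n = 4). Hexosyl methyl inositol is the formula of galactopinitol, the galactoside of pinitol. It had 36.5, 22.1, 26.7 and 20.6 at 356.1319 Da (26.4 ± 7.16, SD, n = 4), and sample 1 was the highest. Its other row, 356.1320 Da, had 6.15, 13.2 and 3.06 in samples 1 to 3 and was not listed in sample 4. Dihexosyl methyl inositol, the formula of ciceritol, had no row at 518.1847 Da, so the ladder of methyl inositols was listed only up to 1 hexose unit.

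Both amino sugar formulas with a row were seen in streptomycin samples only. N-acetylhexosamine, at 221.0900 Da, had 15.96, 17.04, 17.84 and 29.44 in samples 1 to 4 (20.1 ± 6.29, SD, n = 4), so sample 4 stood above the other 3. A row higher by the spacing of a carbon-13 atom, 222.0934 Da, stood at 6.97% to 7.52% of it in the 4 samples. Rows lower by 1 water stood at 203.0794 Da, with means of 3.84 and 0.228. Hexosyl N-acetylhexosamine, the formula of N-acetyllactosamine, had 12.9, 8.93, 11.4 and 10.5 at 383.1428 Da (10.9 ± 1.66, SD, n = 4), and a row lower by 1 water, 365.1322 Da, had 4.79, 4.88, 4.58 and 4.19. Diacetylchitobiose, the dimer of chitin, had no row at 424.1693 Da.

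The amino sugar formulas have the same elemental composition as a sugar plus the infusion solvent. Hexose plus acetonitrile weighs 221.0899 Da, the mass of N-acetylhexosamine, and disaccharide plus acetonitrile weighs 383.1428 Da, the mass of hexosyl N-acetylhexosamine. Extracts were infused in 60% acetonitrile, so an amino sugar and a solvated sugar cannot be told apart by mass. In streptomycin samples 2 to 4 the N-acetylhexosamine row was at 1257% to 2245% of the hexose row, and in sample 1 it was listed without a hexose row. The hexosyl N-acetylhexosamine row was at 48.5% to 84.0% of the disaccharide row. That mass also equals streptobiosamine, the amino sugar disaccharide of streptomycin, plus formic acid, which was added at 0.2% for the positive ion mode. The part of these forms in the rows was not tested.

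The mass errors were small against the tolerance. The median absolute error of the 15 rows was 0.210 ppm and the largest 0.526 ppm, while no row lay between 3 and 10 ppm from a member formula. For 6 rows, those of hexose, hexitol, methyl inositol and N-acetylhexosamine, the formula was the only one within 3 ppm built from carbon, hydrogen, nitrogen, oxygen, phosphorus, sulfur, sodium and chlorine, with at most 5 nitrogens and 2 sulfurs. The disaccharide mass allowed 7 such formulas and the tetrasaccharide mass 55.

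For 5 formulas both rows could be followed through the streptomycin samples. Each sample was measured in both ion modes, and the mode behind each row is not given. The acquisitions of streptomycin sample 1 divide the table. In that sample 879 of 1693 rows had both acquisitions equal within 0.05%, against 3 to 18 rows in each other sample. Of the 101 pairs of rows within 1 ppm that sample 1 listed in both acquisitions, all 101 held 1 equal and 1 unequal row. Rows of the fatty acids palmitic and oleic acid were equal, and rows of both instrument calibrants and of lysophosphatidylcholine 16:0 were unequal. Whether the equal rows are a single acquisition given more than once is not stated, and for them sample 1 may hold 1 measurement. Among the members, 5 rows were equal, 9 unequal and 1, hexose, was not listed in sample 1. The 9 include the sodium form of tetrasaccharide, which counted as unequal because only 1 acquisition of sample 1 listed it.

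**Figure D3:**
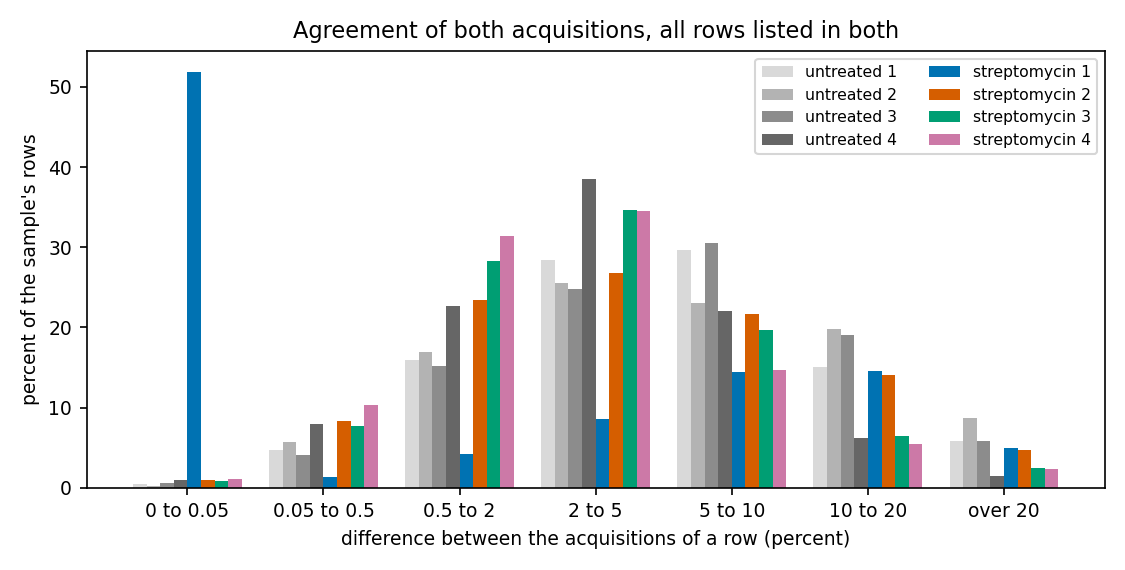
Share of the rows of each of the 8 samples (percent, linear axis, bars) by the difference between both acquisitions of a row. In streptomycin sample 1, 51.9% of rows differ by at most 0.05%, against 0.25% to 1.11% in the other samples.

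For all 5 formulas the 2 rows ordered the samples differently. On the equal rows trisaccharide, tetrasaccharide and hexosyl methyl inositol had their highest value in sample 2, then sample 1, then sample 3, and were not listed in sample 4. On the unequal rows trisaccharide and hexosyl methyl inositol were highest in sample 1, and sample 4 was listed at 12.5 and 20.6. For trisaccharide the equal row was 0.172, 0.705 and 0.112 times the unequal row in samples 1 to 3, and for hexosyl methyl inositol 0.169, 0.598 and 0.115 times. For methyl inositol the ratio was 12.0, 14.8, 11.2 and 8.70 in samples 1 to 4, and for hexitol 1.33, 2.40, 1.11 and 1.06. For tetrasaccharide the 2 rows were unlike, the neutral mass and the sodium form, with ratios of 2.17, 2.81, 0.835 and 0 in samples 1 to 4. The value of its sodium form in sample 1 rests on 1 acquisition. Sample 2 thus had the highest ratio for all 5 formulas. Among all rows listed in streptomycin samples only, sample 2 was the highest in 29.3% of equal and 18.7% of unequal rows. Whether the ratio was highest in sample 2 over all pairs of rows was not tested. Of the 614 equal rows listed in streptomycin samples only, 10.7% were not listed in sample 4. The full order seen for trisaccharide, tetrasaccharide and hexosyl methyl inositol was shared by 5.86%. For hexitol and methyl inositol the equal row was lowest in sample 4 and the unequal row in sample 2. The order of the streptomycin samples thus differed between both rows of all 5 formulas, and the cause was not tested.

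**Figure D4:**
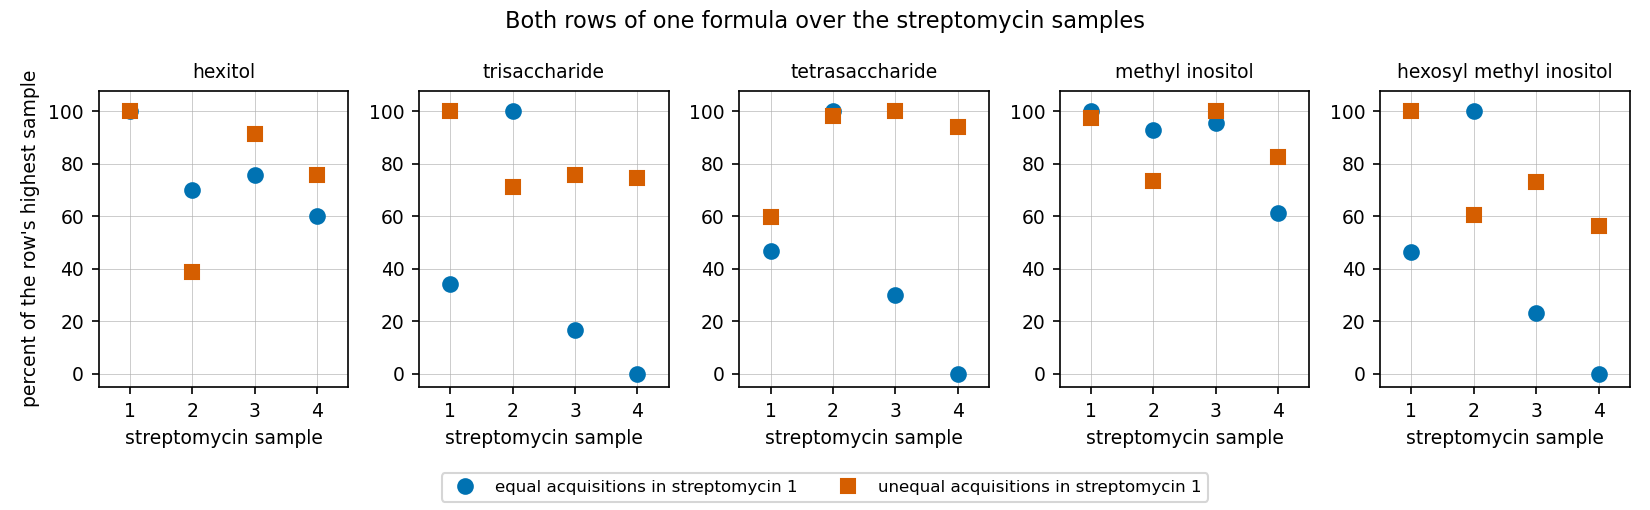
Percent of a row's highest sample (linear axis) in streptomycin samples 1 to 4, for the 5 formulas with a row of equal acquisitions in sample 1 (circles) and a row of unequal acquisitions (squares). For tetrasaccharide the circles are the neutral mass and the squares the sodium form. For trisaccharide, tetrasaccharide and hexosyl methyl inositol the circles peak in sample 2 and are at 0 in sample 4, where the squares stay at 56.4% or more.

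The median difference between both acquisitions of a sample was 0.527% to 5.29% over the 15 rows. The coefficient of variation over the 4 streptomycin samples was 7.64% for hexonic acid, 14.2% to 35.3% for the 10 other rows listed in all 4, and 75.6% to 116% for the 4 rows missing from 1 sample. Its median over the rows listed in streptomycin samples only was 26.7% for equal and 27.3% for unequal rows. With 1 member in all 8 samples, 0 pairs of formulas could be compared for their response to streptomycin. Where intensities of different formulas are given side by side, they do not compare amounts, because compounds ionize differently.

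Other carbohydrates, from a list of 24 further formulas, were matched by 6 rows for 5 formulas. All 6 were listed in streptomycin samples only, as were 47.3% of all rows. The pentose dimer, the formula of the plant cell wall sugar xylobiose, had 19.3, 10.9, 27.1 and 21.2 at 282.0952 Da (19.6 ± 6.70, SD, n = 4). Hexosylglycerol, a unit of plant galactolipids, had 8.06, 5.22, 8.93 and 7.20 at 254.1002 Da, and a further row of that mass had 1.28, 1.41, 1.29 and 0.305, where 1 acquisition of sample 4 did not list it. Pentosylhexose had 4.83, 3.42, 6.77 and 7.11 at 312.1057 Da. Heptose at 210.0739 Da and the sodium form of deoxyhexosyl dihexose, the formula of fucosyllactose, at 510.1557 Da had means of 0.594 and 0.489, and 1 acquisition of sample 3 did not list heptose. Pentose, deoxyhexose, hexuronic acid, hexaric acid, N-acetylmuramic acid and N-acetylneuraminic acid were among the 19 formulas without a row. Streptomycin itself and 5 formulas of its relatives and parts had no row either.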

How the data were processed

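The deposited table gives masses in daltons and 2 acquisitions per sample; some rows lie at isotope or ion-form spacings from others. Per the series' design text, the authors recorded spectra from m/z 150 to 1100, accumulated 200 scans per spectrum and calibrated on a spiked tuning mix. The relative intensity values are used as the authors deposited them. Whether and to what they were scaled, the peak picking and the merging of ion modes are not given in the labels used. The mean of both acquisitions was the sample value. Formula masses were computed with pyteomics 5.0.1 and matched within 3 ppm. Each of the 2429 deposited rows had a value in 3 or 4 samples of 1 group or of both, so a filter at 3 removed none. With 0 replaced by 0.0738, they were fitted on the log2 scale with limma 3.58.1 (R 4.3.3), untreated against streptomycin, with Benjamini-Hochberg adjustment over all rows. The fit was tested on data simulated from rows listed in all 8 samples. That simulation held no 0, so it does not cover rows listed in 1 group only. The methods' t-test was an alternative. Every member row is named, and further masses only where they match the list of other carbohydrates, lie at a fixed spacing from a member or mark a kind of row. The members and lists were chosen with earlier results of these data known. Pairs of formulas were to be compared, but only 1 member row was listed in all 8 samples.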

Additional observations from a re-analysis of the deposited data

Results flagged for a closer look

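In 5 of 22 groups of 4 samples, the gap between an extreme sample and its nearest neighbour took up an unusually large share of the group's range. Chance alone flags about 1 in 20 groups of normally distributed values. That rate does not hold where a sample or 1 of its acquisitions was not listed, as in some of the groups below. Streptomycin sample 1 stood apart on 2 oligosaccharide rows. For trisaccharide at 504.1691 Da it was the highest, with a gap of 0.835 of the range, and for the sodium form of tetrasaccharide at 688.2039 Da it was the lowest, with 0.851, where 1 of its acquisitions did not list the mass. Streptomycin sample 4 stood apart on 3 rows. For N-acetylhexosamine at 221.0900 Da it was the highest, with 0.861. Of the 497 rows of the same kind listed in streptomycin samples only, 37.0% had their highest value in sample 4, and 0.604% had it that far from the others. For hexosylglycerol at 254.1002 Da sample 4 was the lowest, with 0.881, where 1 of its acquisitions did not list the mass, and for deoxyhexosyl dihexose at 510.1557 Da it was not listed, with 0.875.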

How the results depend on the processing

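With only masses listed in all 8 samples, which removes every row of 1 group by construction, 1 member was tested and 0 were higher, 0 other carbohydrates were higher, and 125 rows were higher and 233 lower in all. Under every other alternative 10 to 16 member rows were higher and 0 lower. Where the table was refitted, 1056 to 1341 of all rows were higher and 790 to 966 lower. Apart from hexonic acid, every member row so called was listed in streptomycin samples only. These counts therefore repeat the listing pattern and add no support to it. The 10 are of 11 rows tested, without streptomycin sample 2 or 3. The 16 are of 19 rows, with further ion forms matched, and the rows not called were hexonic acid and the tetrasaccharide forms at 667.2301 and 702.1995 Da. The log2 change of hexonic acid was above 0 throughout, but on the calibrant scale only by 0.0057, with a 95% interval of -0.51 to 0.52. The change passed the threshold with 1 added to every intensity (0.38) and with masses listed in all 4 samples of a group (0.42). It also passed on the median-ratio scale (0.81) and on the second acquisition alone (0.44). Leaving out 1 sample at a time gave 0.28 to 0.54, and it passed without untreated sample 1. With the replicate number as a block it was 0.42 and passed (limma adjusted p = 0.0445). No label says whether same-numbered samples are paired. Their deviations correlated at 0.03 to 0.12, which does not settle it. The block gave 1278 rows higher and 893 lower over the table, against 1281 and 891 in the main fit. The cause of these shifts was not tested. Chosen after seeing the data were the exact permutation test (p = 0.0571) and scaling to the rows with unequal acquisitions (0.12, exact permutation p = 0.571). The difference in response between 2 formulas was not run, since no pair was available. Intensities of 0 have no known detection limit.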
